A study of Salmo salar with 96 samples.

Results

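The livers of wild and hatchery Atlantic salmon parr were compared across a panel of 220 genes that was chosen around the maturation-age genes *vgll3*, *akap11* and *six6*. The members were all parr samples whose tissue label was liver, which gave 8 of the 96 samples of the series. The 4 wild livers came from parr of the Inarijoki, a headwater river of the Teno, that had been caught by electrofishing in early September, and all 4 fish were male. Wild fish 1 and 2 were immature and wild fish 3 and 4 were mature. The 4 hatchery livers came from parr of the Neva river strain that had been reared under commercial farming conditions, and all 4 fish were immature. Hatchery fish 1 and 2 were male and hatchery fish 3 and 4 were female. All 8 fish were 3-year-old parr. Habitat, population, rearing and feeding, part of the sex and maturity, and the measurement cartridge differ together between the groups and cannot be told apart. No cartridge held parr of both habitats: the wild livers lay on 3 cartridges and the hatchery livers on 4.

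The liver makes most of the lipoproteins of the blood, burns and stores fatty acids, and in maturing females makes the yolk precursor under estrogen. Nuclear receptors set much of this: the PPAR proteins sense fatty acids, the vitamin D receptors (VDR) sense calcitriol, and both act as pairs with a retinoid X receptor (RXR). The C/EBP proteins are transcription factors of hepatocytes and fat cells, of which the delta form is known in mammals for its fast response to inflammation and fasting. The salmon genome has been duplicated, so that most genes exist in several copies, which the panel names by a final letter. For some copies no specific probe could be designed, so reads of closely similar copies may be mixed.

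Levels are raw nCounter counts, which count single tagged RNA molecules, multiplied by a factor per sample that brings the geometric mean of 6 reference genes to a common level. The study took 20 normalized counts as its background. Total counts ranged from 317753 to 646426 in the wild livers and from 331786 to 517852 in the hatchery livers. The liver of wild fish 1 stood apart from the others. Its factor was 6.73, against 1.40 to 2.63 in the other wild livers and 1.24 to 2.01 in the hatchery livers, and the study's own quality control removed samples with a factor above 3. The negative control probes, multiplied by the same factor, averaged 69.8 in this liver, 15.1 to 25.0 in the other wild livers and 16.1 to 26.7 in the hatchery livers. In the liver of wild fish 1, 63 genes were above its own background (the mean of its negative controls plus 2 SD), against 118 to 137 in the other wild livers and 118 to 130 in the hatchery livers. Calls that were lost without wild fish 1 are therefore named beside the gene.

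Of the 9 hepatocyte markers on the panel, *spp2* and *apoc1b* had their highest values in liver. Counts of *spp2*, a secreted phosphoprotein made mainly by the liver, were 16045 to 77255 in the 8 livers and at most 1354 in any sample of another tissue. The apolipoprotein gene *apoc1b* had at least 347921 counts in every liver and at most 223989 elsewhere. The others (*apoc1a*, both *cebpa* copies, the 3 *ppara* copies and *nr1i2*) had a higher median in at least 1 other tissue, such as *apoc1a* with a median of 62825 counts in liver and 161116 in gonad, and *pparac* was not above background in any liver. The gonad markers *fshr* and *lhr* were not above background in any liver. Of the 16 nerve and neuroendocrine markers, *rtn1* and *otx2a* were above background in all 8 livers. *rtn1* stayed between 63.2 and 155 counts in liver, against a median of 13307 in brain. *otx2a* had a median of 59.7 counts in liver, close to its highest median elsewhere, 60.2 in adipose fin. The median of *otx2d* was higher in liver, at 29.4 counts, than in any other tissue (at most 15.8), though only 1 liver was above background for it.

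A total of 158 genes averaged 20 normalized counts or more in wild or hatchery livers and were tested with edgeR's quasi-likelihood test, and 62 genes were below that level. Of the 158 genes, 38 (24.1%) differed between wild and hatchery livers at an adjusted p below 0.05, with 15 (9.49%) higher and 23 (14.6%) lower in wild livers. The split depended on the scaling: scaled by the trimmed mean of M-values (TMM) over the panel in place of the 6 reference genes, 48 genes (30.4%) differed, 28 (17.7%) higher and 20 (12.7%) lower. Without wild fish 1, 37 genes (23.4%) differed, 12 (7.59%) higher and 25 (15.8%) lower, of which 33 were among the 38. The 4 wild and the 4 hatchery livers did not overlap for 45 of the tested genes (28.5%), among them 32 of the 38. The median log2 fold change over all tested genes was -0.06, and -0.24 without wild fish 1. In bulk tissue, fewer cells of a type and less RNA per cell cannot be told apart.

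**Figure D1:**
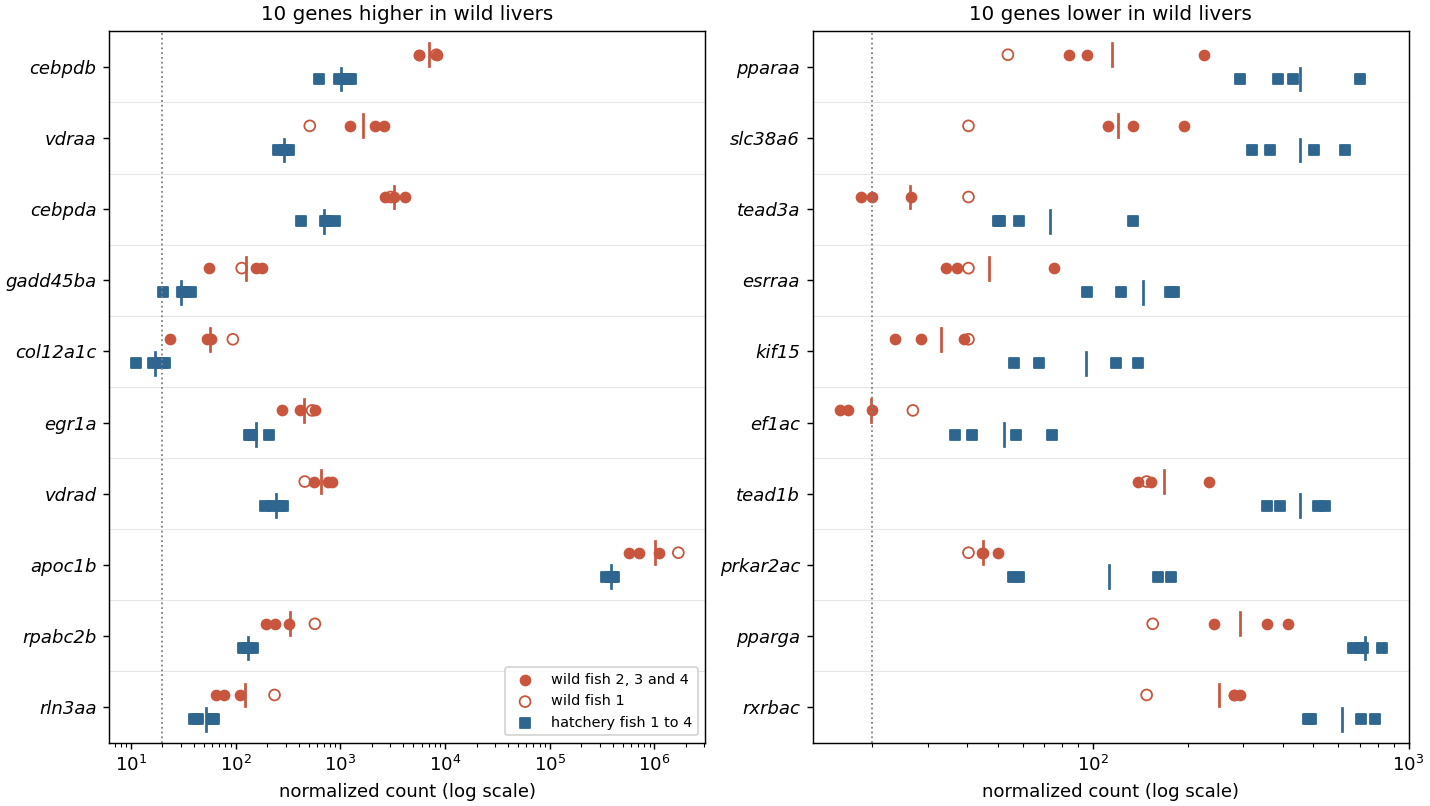
Normalized counts (log axis) in each of the 8 livers for the 10 genes with the largest fold change in each direction among those that passed the test with no overlap between the groups. Red circles are wild livers (open: wild fish 1), blue squares are hatchery livers, vertical bars are group means, and the dotted line is 20 counts. The wild *cebpdb* counts, 5677 to 8355, lay above all hatchery counts, and the wild *pparaa* counts, 53.9 to 225, below all hatchery counts.

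The changes with the smallest p-values were those of the C/EBP delta genes. *cebpdb* had 8266, 5677, 8355 and 5677 counts in wild fish 1 to 4, against 622, 981, 1190 and 1254 in hatchery fish 1 to 4. *cebpda* had 3029, 2700, 4168 and 3230 counts in wild livers, against 419, 712, 755 and 887 in hatchery livers. Both copies were thus higher in every wild liver than in any hatchery liver. The fold changes were 6.91 for *cebpdb* (log2 2.79 ± 0.36 SE, adjusted p = 6.2e-05) and 4.73 for *cebpda* (log2 2.24 ± 0.35, adjusted p = 0.000294). None of the other 3 tested C/EBP genes passed the test. *cebpaa*, a copy of the hepatocyte factor C/EBP alpha, had 330, 849, 730 and 547 counts in wild livers, against 2187, 2239, 776 and 508 in hatchery livers (log2 -1.21, adjusted p = 0.0554). Here the hatchery males were high and the hatchery females lay within the wild range.

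The early response genes, which cells switch on within minutes of a stimulus or under stress, were higher in wild livers for 4 of the 5 tested members, beside 9.49% of all tested genes, with a median log2 fold change of 1.51 beside -0.06 over all tested genes. *gadd45bb*, a gene of the stress and DNA damage response, had 1568, 184, 2954 and 1936 counts in wild livers, against 414, 341, 102 and 73.1 in hatchery livers. Wild fish 2 fell within the hatchery range, and the others lay above it (fold change 7.12, log2 2.83 ± 0.65, adjusted p = 0.00452). Its copy *gadd45ba* had 114, 55.9, 179 and 156 counts in wild livers, against 20.1, 32.3, 37.7 and 30.8 in hatchery livers, with no overlap (log2 2.05 ± 0.37, adjusted p = 0.00125). Only 2 of the 4 hatchery livers were above their own background for *gadd45ba*.

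*egr1a*, which codes for an immediate-early transcription factor, had 538, 279, 411 and 569 counts in wild livers, against 209, 134, 141 and 144 in hatchery livers. The groups did not overlap (fold change 2.85, log2 1.51 ± 0.31, adjusted p = 0.00277). *egr1b* ranged from 124 to 464 counts in wild livers and from 75.8 to 147 in hatchery livers (log2 1.14 ± 0.37, adjusted p = 0.029). The groups of *egr1b* overlapped, and it did not pass without wild fish 3 (adjusted p = 0.0897), wild fish 4 (0.14), hatchery fish 2 (0.0718) or hatchery fish 3 (0.0535). All 4 genes also passed the test without wild fish 1. None of the 4 passed between the immature males alone, where the log2 fold changes were 1.18 for *gadd45bb* (adjusted p = 0.297), 1.53 for *gadd45ba* (0.0587), 1.22 for *egr1a* (0.0697) and 0.48 for *egr1b* (0.446).

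Vitamin D receptor copies differed from each other. *vdraa* had 512, 1247, 2168 and 2642 counts in wild livers, against 254, 293, 326 and 298 in hatchery livers. All wild livers were higher than all hatchery livers, and the mature males, wild fish 3 and 4, were the highest (fold change 5.63, log2 2.49 ± 0.42, adjusted p = 0.000647). *vdrad* had 458, 567, 764 and 838 counts in wild livers, against 268, 228, 286 and 192 in hatchery livers (log2 1.44 ± 0.30, adjusted p = 0.00277). The groups again did not overlap. The log2 fold change of *vdrab* was -0.10 ± 0.30 (adjusted p = 0.837) and that of *vdrac* -0.01 ± 0.32 (adjusted p = 0.979). *vdraa* and *vdrab* were both among the 6 reference genes that set the scale.

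Of 14 tested genes in the list of retinoid, vitamin D and xenobiotic receptors, 2 were higher in wild livers (the VDR copies above), 4 were lower and 8 did not pass, beside 9.49% higher and 14.6% lower of all tested genes. The 4 lower ones were retinoid X receptors, the partners of VDR and PPAR on DNA, of which 7 copies were tested. *rxrbac* had 148, 279, 292 and 281 counts in wild livers, against 479, 491, 708 and 785 in hatchery livers (log2 -1.28 ± 0.32, adjusted p = 0.0074). *rxrab* ranged from 148 to 287 counts in wild livers and from 427 to 537 in hatchery livers (log2 -1.11 ± 0.29, adjusted p = 0.00994). Neither copy overlapped between the groups. *rxrbaa*, a reference gene, had 40.4, 33.5, 18.4 and 31.5 counts in wild livers, against 58.4, 78.3, 65.9 and 80.8 in hatchery livers (log2 -1.23 ± 0.34, adjusted p = 0.0119), 2 of the 4 wild livers were above their own background, and the adjusted p was 0.0558 without wild fish 3. *rxrgab* had 121, 133, 71.1 and 78.8 counts in wild livers, against 103, 127, 324 and 431 in hatchery livers (log2 -1.29 ± 0.42, adjusted p = 0.028). Its high values were those of the hatchery females, while the hatchery males overlapped the wild males, and it did not pass without wild fish 1 (adjusted p = 0.0537), wild fish 3 (0.11), wild fish 4 (0.0789), hatchery fish 3 (0.0664) or hatchery fish 4 (0.135).

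**Figure D2:**
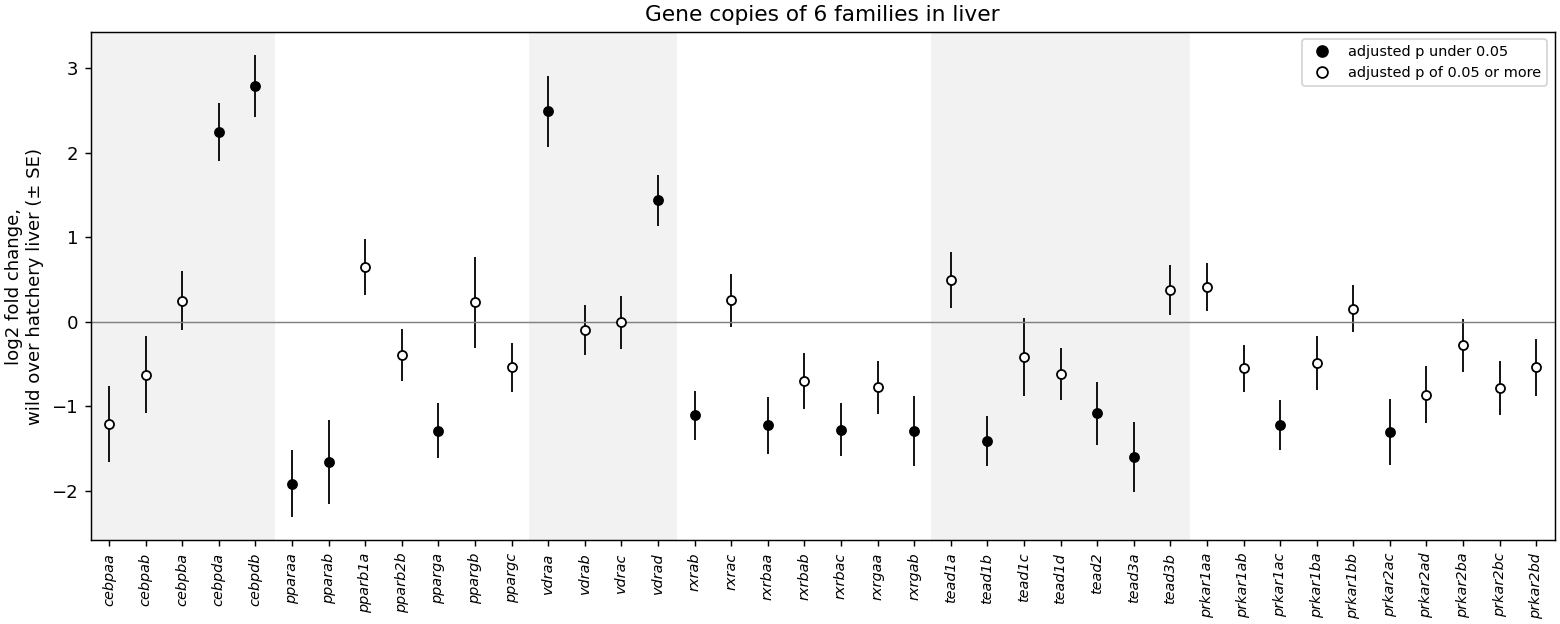
Log2 fold change of wild over hatchery liver (± SE) for each tested gene copy of the C/EBP, PPAR, VDR, RXR, TEAD and PKA regulatory subunit families (PRKAR), from the fit to all 8 livers. Filled points passed an adjusted p of 0.05, as for *vdraa* at 2.49 and *pparaa* at -1.91, and open points did not, as for *vdrab* at -0.10.

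Of 16 tested lipid and adipogenesis transcription factors, 2 were higher (the C/EBP delta copies), 3 were lower and 11 did not pass, beside 9.49% higher and 14.6% lower of all tested genes, with a median log2 fold change of -0.38. The 3 lower ones were PPAR genes. *pparaa*, a copy of the regulator of fatty acid oxidation, had 53.9, 225, 84.3 and 96.0 counts in wild livers, against 702, 293, 386 and 431 in hatchery livers. Every wild liver was below every hatchery liver (3.77-fold lower, log2 -1.91 ± 0.40, adjusted p = 0.00277). The second copy, *pparab*, had 289, 232, 580 and 1452 counts in wild livers, against 2864, 2551, 1220 and 1479 in hatchery livers (log2 -1.66 ± 0.49, adjusted p = 0.0187). The mature wild fish 4 lay within the hatchery range, and the gene did not pass without wild fish 1 (adjusted p = 0.0715) or wild fish 3 (0.0745). *pparga*, best known as the master regulator of fat cells, had 155, 416, 242 and 355 counts in wild livers, against 716, 665, 823 and 700 in hatchery livers, with no overlap (log2 -1.29 ± 0.33, adjusted p = 0.00844).

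The 4 fat cell markers on the panel (3 *pparg* copies and the leptin gene *lepb1*) summed to 397 to 562 counts in wild livers and to 884 to 1002 in hatchery livers. Of these markers, 1 of 4 passed the test, *pparga*, beside 24.1% of all tested genes. *pparga* was the largest part of the sum in every liver, though in wild fish 1 it was 155 of 397 counts. *lepb1* was not above background in any liver. None of the 4 had its highest median in adipose tissue: the *pparg* copies had it in pyloric caeca (2088 counts for *pparga*) and *lepb1* in adipose fin. The sum therefore does not single out fat tissue in this series. *pparaa*, *pparab* and both *cebpa* copies, listed as hepatocyte markers, had their highest medians in adipose tissue. The part of fat tissue in the PPAR values was not tested.

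In the apolipoprotein and leptin list, 2 of 5 tested genes were higher in wild livers, beside 9.49% of all tested genes. Without wild fish 1 this was 1 of 5, beside 7.59% of all tested genes. *apoc1b*, which codes for a small apolipoprotein of triglyceride-rich particles, had 1692378, 570660, 1109276 and 717641 counts in wild livers, against 406688, 381263, 412514 and 347921 in hatchery livers. All wild values exceeded the hatchery values (log2 1.40 ± 0.40, adjusted p = 0.0139), and without wild fish 1 the log2 fold change was 1.05 ± 0.35 (adjusted p = 0.0441). It did not pass without wild fish 3 (adjusted p = 0.0609) or hatchery fish 4 (0.0519). A single probe thus held a large share of the molecules counted. *apoc1b* made up 74.1% ± 7.14 of all gene counts in wild livers and 57.0% ± 4.27 in hatchery livers (SD, n = 4 each; exact permutation test, two-sided p = 0.0286, the smallest that 4 against 4 allows). This share does not depend on the reference genes. The second copy, *apoc1a*, had a log2 fold change of 1.08 ± 0.42 (adjusted p = 0.0669).

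The leptin receptor copy *lepra* had 202, 68.4, 119 and 105 counts in wild livers, against 68.4, 57.2, 52.7 and 51.9 in hatchery livers (log2 1.02 ± 0.33, adjusted p = 0.029). The lowest wild and the highest hatchery value differed by less than 1 count. In the growth hormone axis, 1 of 7 tested genes was higher in wild livers, beside 9.49% of all tested genes. This was the ghrelin receptor copy *ghsrc*, with 137 to 330 counts in wild livers and 80.8 to 111 in hatchery livers (log2 1.00 ± 0.32, adjusted p = 0.028). Neither *lepra* (adjusted p = 0.0537) nor *ghsrc* (adjusted p = 0.0596) passed without wild fish 1, in which both were highest. Both also missed the threshold without wild fish 3 (adjusted p = 0.0745 and 0.0718), hatchery fish 2 (0.059 and 0.0664) or hatchery fish 4 (0.0792 and 0.0816), and *lepra* without hatchery fish 3 (0.0653).

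The receptor genes for estrogen and the estrogen-related receptors were lower in wild livers for 2 of the 5 tested steroid and orphan receptor genes, beside 14.6% of all tested genes. *esr1*, the estrogen receptor that drives yolk protein synthesis in fish liver, had 902, 256, 466 and 345 counts in wild livers, against 1250, 1051, 1384 and 860 in hatchery livers. The groups overlapped through wild fish 1 alone (log2 -1.23 ± 0.38, adjusted p = 0.0213), and without that liver the log2 fold change was -1.68 ± 0.30 (adjusted p = 0.00333). The gene did not pass without wild fish 2 (adjusted p = 0.0553), wild fish 3 (0.0734), wild fish 4 (0.0624) or hatchery fish 3 (0.054). It also did not pass with males only (log2 -1.25, adjusted p = 0.106) or immature males only (-1.03, 0.206). Between female and male hatchery livers its log2 fold change was -0.035 (adjusted p = 0.976). *esrraa*, an orphan receptor that regulates mitochondrial genes, had 40.4, 75.4, 34.2 and 37.2 counts in wild livers, against 181, 175, 96.0 and 123 in hatchery livers (log2 -1.57 ± 0.34, adjusted p = 0.00319). No wild liver reached the lowest hatchery liver. Only 2 of the 4 wild livers were above their own background for *esrraa*, and its log2 fold change was -2.22 with subtracted negative controls. The androgen receptor copies *arb1* and *arb2* had log2 fold changes of -0.54 and -0.07 and did not pass.

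In the Hippo pathway, which restrains organ growth through the TEAD transcription factors and their cofactors, 4 of 17 tested genes were lower in wild livers and none was higher (median log2 -0.42), beside 14.6% lower and 9.49% higher of all tested genes. Under TMM 3 were lower and 1 was higher, beside 12.7% lower and 17.7% higher of all tested genes. *tead1b* had 148, 233, 153 and 139 counts in wild livers, against 543, 356, 392 and 517 in hatchery livers (log2 -1.41 ± 0.30, adjusted p = 0.00277). The groups of *tead1b* did not overlap. *tead3a* had 40.4, 26.5, 18.4 and 20.1 counts in wild livers, against 58.4, 134, 50.8 and 50.01 in hatchery livers (log2 -1.60 ± 0.42, adjusted p = 0.00951). None of the wild livers was above its own background for *tead3a*, so the size of its change is uncertain, and it did not pass without hatchery fish 2 (adjusted p = 0.0841). *tead2* (log2 -1.08 ± 0.37, adjusted p = 0.0377) and *stk3a*, a kinase at the head of the pathway (log2 -1.14 ± 0.31, adjusted p = 0.0112), were also lower with no overlap. *tead2* did not pass without wild fish 3 (adjusted p = 0.116), wild fish 4 (0.0772), hatchery fish 1 (0.0826), hatchery fish 2 (0.0718) or hatchery fish 4 (0.0983). Only 2 of the 4 wild livers were above their own background for *tead2*.

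The cofactor *vgll3a*, which binds TEAD proteins and whose locus is linked to age at maturity in salmon, had 188, 55.9, 100 and 64.5 counts in wild livers, against 70.4, 54.7, 56.5 and 34.6 in hatchery livers. The groups overlapped and the gene did not pass the test (log2 0.80 ± 0.38, adjusted p = 0.119). It passed in 3 of 14 other settings, among them TMM (log2 0.94, adjusted p = 0.0303), and its log2 fold change was 0.41 without wild fish 1 (adjusted p = 0.321). *vgll3b* was not above background in any liver. *akap11a* averaged 65.5 ± 32.9 counts in wild livers and 62.6 ± 10.7 in hatchery livers (SD, n = 4 each; log2 -0.06 ± 0.34, adjusted p = 0.907), and *akap11b* averaged 112 ± 77.7 counts in wild livers and 110 ± 14.95 in hatchery livers (log2 -0.09 ± 0.36, adjusted p = 0.864). The wild mean of *akap11b* rested on wild fish 1, at 229 counts. Without it the mean was 73.6 ± 4.47 counts (SD, n = 3), below all hatchery livers, and the log2 fold change was -0.59 (adjusted p = 0.0896). Their log2 fold changes ranged from -0.53 to 0.35 for *akap11a* and from -0.73 to 0.34 for *akap11b* over 14 other settings. *six6a* and *six6b* were not above background in any liver.

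Regulatory subunits of protein kinase A, which hold the kinase inactive until cAMP binds, and their anchors were lower in wild livers for 2 of 12 tested genes (median log2 -0.51), a share near the 14.6% of all tested genes. *prkar1ac* had 80.8, 169, 158 and 130 counts in wild livers, against 268, 339, 345 and 333 in hatchery livers (log2 -1.22 ± 0.29, adjusted p = 0.00595). *prkar2ac* had 40.4, 44.7, 44.8 and 50.2 counts in wild livers, against 177, 160, 58.4 and 55.8 in hatchery livers (log2 -1.31 ± 0.39, adjusted p = 0.0187). For *prkar2ac* the hatchery males were far above the wild fish and the hatchery females only just above them. Only 2 of the 4 wild livers were above their own background for *prkar2ac*. It did not pass without wild fish 3 (adjusted p = 0.0701), hatchery fish 1 (0.0667) or hatchery fish 2 (0.0616). The reference gene *prkar1aa* had a log2 fold change of 0.41 ± 0.29 (adjusted p = 0.301).

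Several genes outside these families were among the most changed. *slc38a6*, a member of an amino acid transporter family, had 40.4, 134, 195 and 112 counts in wild livers, against 501, 629, 318 and 364 in hatchery livers (3.64-fold lower, log2 -1.86 ± 0.37, adjusted p = 0.0027). *kif15*, a motor protein of the mitotic spindle, had 40.4, 39.1, 23.7 and 28.7 counts in wild livers, against 139, 118, 56.5 and 67.3 in hatchery livers (log2 -1.55 ± 0.37, adjusted p = 0.0058). Both were without overlap, and 2 of the 4 wild livers were above their own background for *kif15*. *hif1a*, the oxygen-sensing transcription factor, ranged from 40.4 to 73.1 counts in wild livers and from 126 to 155 in hatchery livers (log2 -1.26 ± 0.29, adjusted p = 0.00452).

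*aesa*, a corepressor of the Groucho family, was lower in wild livers (log2 -1.11 ± 0.31, adjusted p = 0.0119). It was the 1 lower gene of 9 tested in the list of sine oculis, OTX and corepressor genes, beside 14.6% of all tested genes. *chmp2b*, a part of the membrane-cutting ESCRT machinery, had 249, 105, 132 and 123 counts in wild livers, against 90.6, 65.9, 67.8 and 57.7 in hatchery livers (log2 1.05 ± 0.32, adjusted p = 0.0213). Its groups did not overlap, and it did not pass without hatchery fish 3 (adjusted p = 0.0512) or hatchery fish 4 (0.0713). The relaxin gene *rln3aa* ranged from 65.7 to 236 counts in wild livers and from 39.8 to 62.4 in hatchery livers (log2 1.14 ± 0.38, adjusted p = 0.0339), and did not pass without wild fish 1 (adjusted p = 0.0896), wild fish 3 (0.0825), hatchery fish 2 (0.0758) or hatchery fish 4 (0.0831).

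Of 11 tested matrix and bone genes, 1 was higher and 2 were lower in wild livers, a share near the 24.1% of all tested genes that differed. *col1a1b*, a chain of type I collagen, ranged from 81.7 to 141 counts in wild livers and from 147 to 313 in hatchery livers (log2 -1.18 ± 0.31, adjusted p = 0.00951), and the cartilage factor gene *sox9c* was lower by a smaller amount (log2 -0.83 ± 0.29, adjusted p = 0.0416). *sox9c* did not pass without wild fish 2 (adjusted p = 0.0704), wild fish 3 (0.122), hatchery fish 2 (0.11), hatchery fish 3 (0.054) or hatchery fish 4 (0.11). *col12a1c* had 94.2, 53.1, 23.7 and 58.8 counts in wild livers, against 16.1, 19.9, 11.3 and 21.2 in hatchery livers (log2 1.64 ± 0.44, adjusted p = 0.0105). No hatchery liver and 2 of the 4 wild livers were above their own background for it, so that its fold change depends on the background. It entered the test through the wild livers alone, as its hatchery mean of 17.1 counts was below the level of 20. The 8 fibroblast and bone markers summed to 898 to 2847 counts in wild livers, the highest being wild fish 1, and to 795 to 1472 in hatchery livers, and their part in these values was not tested.

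**Figure D3:**
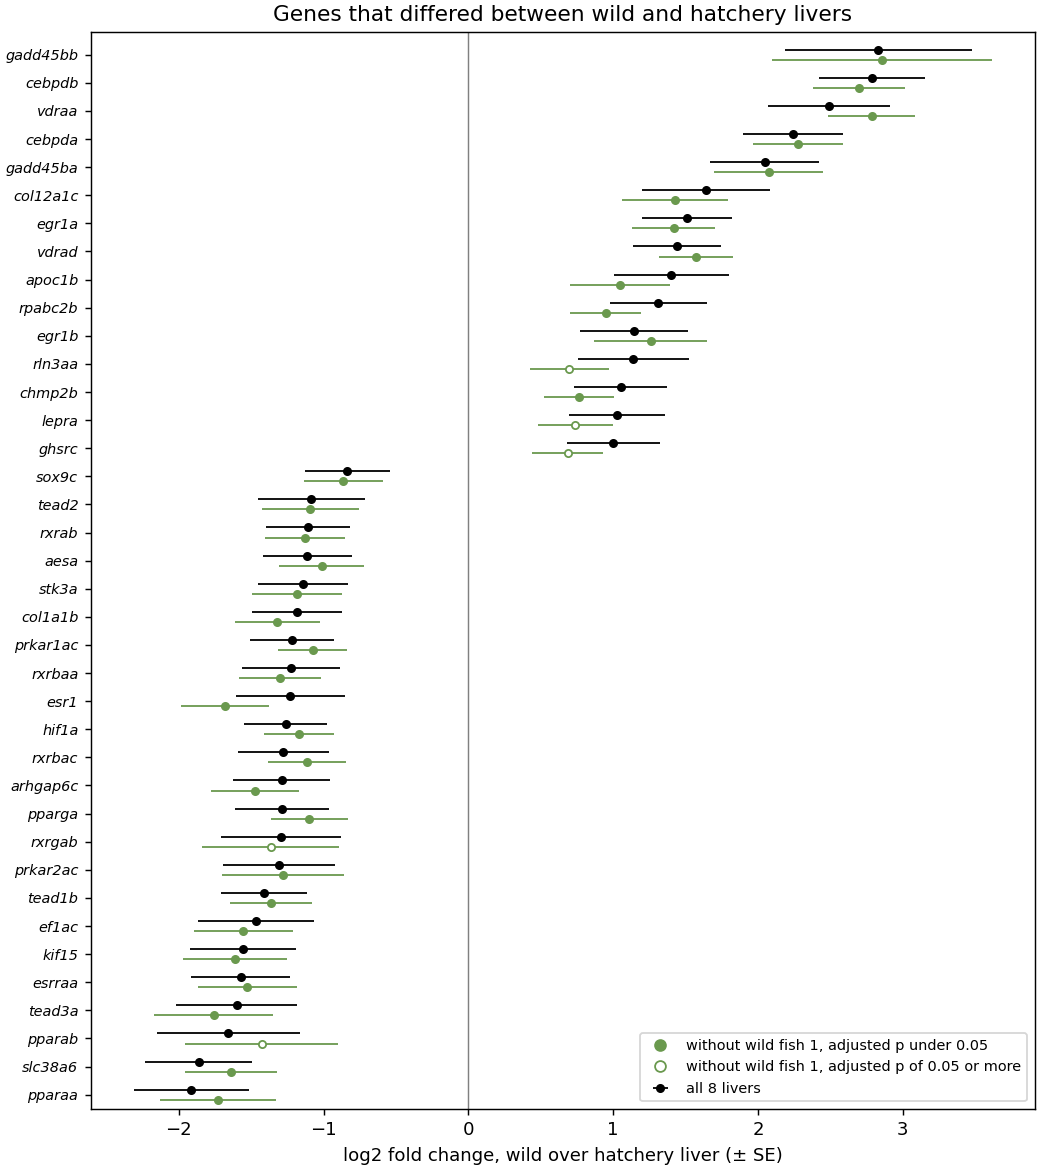
Log2 fold change of wild over hatchery liver (± SE) for the 38 genes that passed the test, from all 8 livers (black) and without wild fish 1 (green, open where the adjusted p was 0.05 or more). All 38 genes keep their direction, and *rln3aa*, *lepra*, *ghsrc*, *pparab* and *rxrgab* do not pass without wild fish 1.

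The scale rests on the 6 reference genes, and 3 of them differed between the groups themselves. *vdraa* was higher in wild livers, and *rxrbaa* and *ef1ac* were lower. As the 6 genes set the scale together, a rise of *vdraa* lowers the others on it. Scaled by the positive controls, *vdraa* (log2 2.66, adjusted p = 0.0305) and *ef1ac* (-1.54, 0.0325) passed and *rxrbaa* (-1.32, 0.125) did not. *ef1ac*, a copy of an elongation factor gene, had raw counts of 4, 12, 6 and 14 in wild livers, against 37, 46, 22 and 19 in hatchery livers, and no wild liver was above its own background for it (log2 -1.46 ± 0.40, adjusted p = 0.0116). It entered the test through the hatchery livers alone, with a mean of 52.4 normalized counts, against 17.5 in wild livers without wild fish 1. The ribosomal gene *rps20* had a log2 fold change of 0.35 ± 0.45 (adjusted p = 0.561), and its direction was the opposite without wild fish 1 (-0.28, adjusted p = 0.587) and when scaled by the positive controls (-0.28). Of the housekeeping genes of the panel, *rpabc2b*, a shared subunit of the RNA polymerases, was higher in wild livers (log2 1.31 ± 0.33, adjusted p = 0.00844).

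**Figure D4:**
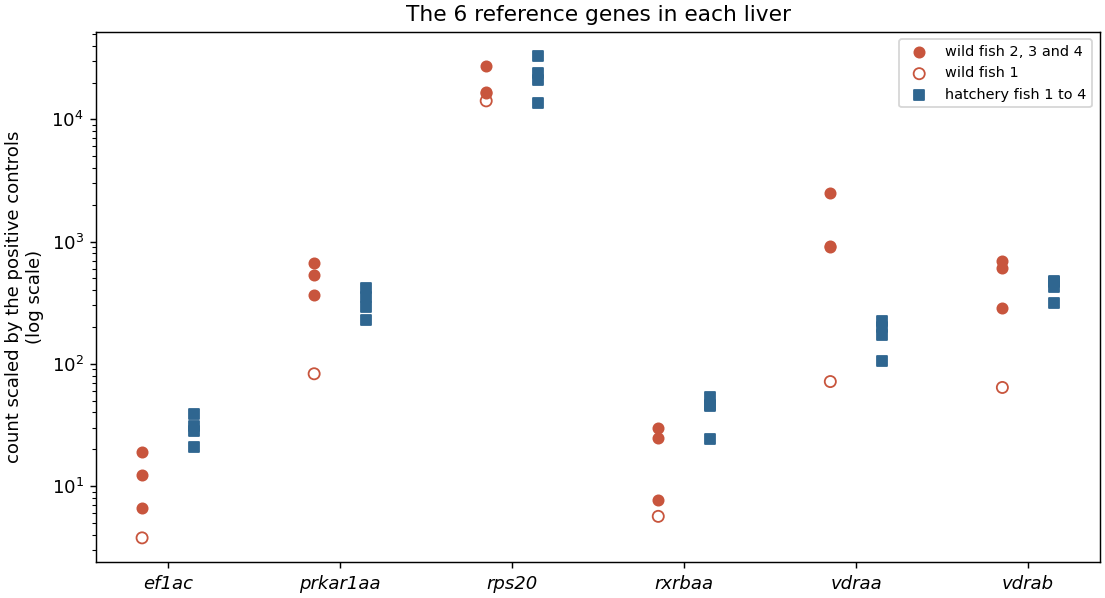
Counts of the 6 reference genes in each liver, scaled by the positive control probes in place of the reference genes (log axis). Red circles are wild livers (open: wild fish 1) and blue squares hatchery livers. Wild fish 1 has the lowest value of all livers for 5 of the 6 genes, and *vdraa* is at 901 to 2510 in the other wild livers and at 105 to 223 in the hatchery livers.

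When the counts were scaled by the positive control probes, which carry no information on the RNA input, the spread within the groups was larger and 7 genes passed (4.43%). These were *cebpdb*, *gadd45ba*, *gadd45bb*, *vdraa* and *col12a1c*, higher in wild livers (3.16%), and *tead3a* and *ef1ac*, lower (1.27%). Their log2 fold changes were 2.53 for *cebpdb*, 1.92 for *gadd45ba*, 2.73 for *gadd45bb* and 2.66 for *vdraa*. *col12a1c* and *ef1ac* had entered the test only through the group in which they were higher.

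Sex and maturity were unequal between the groups, so the wild and hatchery livers were also split. With the 4 wild and 2 hatchery males alone, 25 of 158 genes differed, 7 higher and 18 lower in wild livers. Of these 25, 20 were among the 38. Between the 2 immature wild males and the 2 immature hatchery males, 15 genes (9.49%) differed, 4 (2.53%) higher and 11 (6.96%) lower, of which 11 were among the 38. One of these wild fish was wild fish 1. In that comparison *cebpdb* had a log2 fold change of 3.12, *cebpda* 2.34 and *vdraa* 1.70, and all 3 passed, while none of the early response genes did. *slc38a6* was at -2.53, *pparab* at -3.39 and *rxrgab*, which did not pass, at 0.15.

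Between mature and immature wild livers, 2 against 2 fish, edgeR called 0 of 158 genes (17 at an unadjusted p below 0.05). *foxo1a*, which codes for a transcription factor restrained by insulin, had 184 and 372 counts in the mature males, against 33.7 and 82.4 in the immature males (log2 2.11 ± 0.46, adjusted p = 0.118). The value of 33.7 was that of wild fish 1, from 5 raw counts, below the mean of 10.4 of its negative controls. *pparab* had 580 and 1452 counts in the mature males, against 289 and 232 in the immature males (log2 1.98 ± 0.46, adjusted p = 0.118). These genes were chosen after their values were seen, and both missed the threshold. Between female and male hatchery livers, 3 genes (1.9%) passed, 1 (0.633%) higher and 2 (1.27%) lower in females, and which genes passed depended on single livers. *cebpab* had 1002 and 731 counts in females, against 4017 and 3167 in males (log2 -2.05 ± 0.38, adjusted p = 0.0212), *prkar2ac* was also lower in females (log2 -1.56 ± 0.31, adjusted p = 0.0245), and *rxrgab* was higher in females (log2 1.71 ± 0.31, adjusted p = 0.0212).

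To ask what was particular to liver, the wild to hatchery difference in liver was set against the mean difference in eye, gill, heart, kidney, muscle and skin of the same fish, with fish as a block. Of 158 genes, 42 (26.6%) differed, with 30 (19%) more positive and 12 (7.59%) more negative in liver, and the median over all genes was 0.24. Scaled by TMM, 16 were more positive and 33 more negative, with a median of -0.19, so a direction shared by many genes rests on the scale. The difference with the smallest p-value was that of *vdraa*, at 1.88 ± 0.23 (adjusted p = 9.03e-08), with log2 fold changes of 2.49 in liver and 0.00 to 1.07 in the other tissues, and *vdrad* differed by 0.99 ± 0.18 (adjusted p = 9.05e-05). Both passed under TMM too, at 1.47 and 0.57, and *vdrad* did not pass with positive control scaling (adjusted p = 0.0921). In the other tissues *vdrad* was at -0.32 to 1.06. *vdraa* was also higher in wild fish, and passed, in kidney and skin, and *vdrad* in eye and kidney. The other VDR copies, *vdrab* at -0.15 (adjusted p = 0.61) and *vdrac* at -0.01 (0.967), did not pass.

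*chmp2b*, *lepra* and *rln3aa* were higher in wild livers and had negative log2 fold changes in all 6 other tissues, from -1.06 to -0.47, -2.35 to -0.37 and -1.87 to -0.14. Of these negative values, those of *chmp2b* passed in eye, gill, kidney and skin and that of *lepra* in eye alone. None of those of *rln3aa* passed. The differences were 1.82 ± 0.26 for *chmp2b* (adjusted p = 2.84e-06), 1.99 ± 0.49 for *lepra* (adjusted p = 0.00285) and 1.69 ± 0.46 for *rln3aa* (adjusted p = 0.00605). The positive differences of *col12a1c* (2.52 ± 0.50) and *arhgap6b* (2.32 ± 0.56) were larger than that of *lepra*, and that of *enox1* was 1.96 ± 0.48. In liver itself neither *arhgap6b* (log2 0.73 ± 0.50, adjusted p = 0.297) nor *enox1* (0.69 ± 0.39, adjusted p = 0.199) passed. Their log2 fold changes in the other tissues were -2.85 to 0.32 for *arhgap6b* and -2.24 to 0.46 for *enox1*. *arhgap6b* was not above background in any liver. It entered the test through the wild livers alone, at a mean of 22.1 counts without wild fish 1, against 15.5 in hatchery livers.

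On the negative side, *pparab* stood at -2.22 ± 0.39 (adjusted p = 6.55e-05), with log2 fold changes of -1.66 in liver and -0.50 to 2.55 in the other tissues. *esrraa* differed by -1.3 ± 0.33 (adjusted p = 0.00356). It was also lower in wild fish, and passed, in gill (-1.11), heart (-1.15) and kidney (-0.85). In eye it was higher and passed (1.28), and in muscle it was at 0.77 and did not pass. *ef1ac* differed by -0.86 and *rxrbaa* by -0.85. Like *vdraa*, *ef1ac* and *rxrbaa* are reference genes, so a rise of 1 lowers the others on this scale. With positive control scaling the differences were -0.96 for *ef1ac* (adjusted p = 0.148) and -0.99 for *rxrbaa* (0.0481). *egr1a* was higher in wild fish in all 7 tissues, and less so in liver, at 1.51, than in the mean of the others, where its log2 fold changes were 1.47 to 3.97 (difference -0.85 ± 0.31, adjusted p = 0.0372). Without the samples with a factor above 3, among them the liver of wild fish 1, neither *egr1a* (adjusted p = 0.0784) nor *ef1ac* (0.0627) passed. Of the 38 genes that differed in liver, 19 had the same sign in all 6 other tissues (14 lower, 5 higher). Only 3 had it in none. Among the 19 were *gadd45bb* (1.00 to 2.21), *tead1b* (-1.64 to -0.54) and *kif15* (-1.70 to -0.65). Values near 0 counted as well, such as *vdraa* at 0.002 in heart and *prkar1ac* at -0.009 in eye. The same count over all tested genes was not made, so 19 of 38 cannot be set against the share over the panel. Both C/EBP delta copies were also higher in wild fish, and passed, in 5 of the 6 other tissues. Their log2 fold changes there ran from -0.32 to 3.37 for *cebpda* and from -0.48 to 3.16 for *cebpdb*. The other tissues came from the same fish as the livers, or from some of them: 4 wild and 4 hatchery fish for eye and kidney, 3 and 4 for gill, 4 and 3 for heart and muscle, and 3 and 3 for skin.

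**Figure D5:**
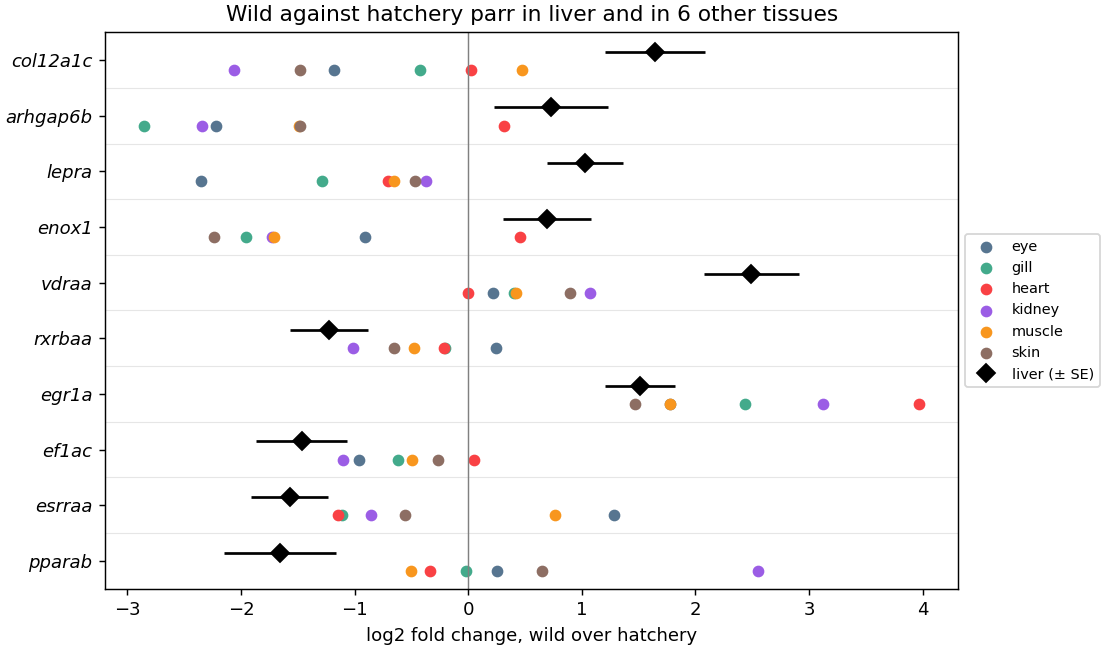
Log2 fold change of wild over hatchery parr in liver (black diamonds, ± SE) and in 6 other tissues (coloured points) for the 5 genes with the largest difference between liver and the mean of the other tissues in each direction among those that passed the test of that difference. *vdraa* is at 2.49 in liver and at 0.00 to 1.07 elsewhere, and *pparab* at -1.66 in liver and at -0.50 to 2.55 elsewhere.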

How the data were processed

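RNA (100 ng per sample) was hybridized to a custom nCounter panel of 220 genes with 6 positive and 8 negative controls. The authors deposited raw counts and, for 211 genes, a normalized signal made in nSolver v3.0 with a factor per sample from 6 reference genes (*vdraa*, *vdrab*, *rxrbaa*, *prkar1aa*, *ef1ac* and *rps20*). Raw counts multiplied by the recomputed factor matched the deposited signal within 0.00942% over 7426 values with at least 100 raw counts. Every column was assigned to a sample by its label, with 0 left over. The build behind the probes was not stated, and 169 probes matched a gene of Ssal_v3.1 by RefSeq accession.

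Genes averaging 20 normalized counts or more in 1 group (wild fish 1 left out of that mean) were tested on raw counts with edgeR 4.0.16 (glmQLFit, glmQLFTest; the 6-gene factor as offset; Benjamini-Hochberg over 158 genes; threshold 0.05). The same test served the tissue difference (fish as a fixed block) and the subgroups (4 subgroups in 1 fit, so each spread is pooled). Alternatives used limma 3.58.1 and DESeq2 1.42.0 in R 4.3.3, with 1 added on the log2 scale for limma. Shares and summaries were made in Python 3.11.15 (scipy 1.17.1, pandas 2.3.3, numpy 2.4.6; figures with matplotlib 3.10.9). In simulated comparisons of 4 against 4 livers over 158 genes, the test recovered 60.2% of genes changed by 1 and 97.5% of genes changed by 2 on the log2 scale, and 2.77% of its calls were false. The simulation gave all genes the same dispersion, used the true factors and held no background. Its shares therefore do not measure the false calls among these livers. Replicates were different fish, and no 2 livers agreed within counting noise. Totals were 317753 to 646426 counts per liver, but most of each total was *apoc1b*. Counting error depends on each gene's own count and is not small for low counts. In wild fish 1, for example, *hif1a* and *slc38a6* had 6 raw counts each.

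Named are the 10 largest non-overlapping changes in each direction, members of the gene lists that passed, *vgll3*, *akap11*, *six6* and the reference genes, the 5 largest tissue differences in each direction that passed, and up to 3 in each direction that passed for the subgroups. *hif1a*, *chmp2b* and *foxo1a* fall outside this rule and were chosen after their values were seen. Further copies of a named family are given whatever their value. Genes, lists and tests were chosen with earlier results of these data known. Symbols are those of the panel.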

Additional observations from a re-analysis of the deposited data

Results flagged for a closer look

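Over 50 named genes and both groups, a single liver lay far from the other 3 of its group in 10 of 100 sets of 4 values, where chance gives about 1 in 20. In 5 of the 10 this was wild fish 1, the liver with the factor of 6.73: it had 114 normalized counts of *akap11a*, 229 of *akap11b*, 47.1 of *arhgap6b* and 26.9 of *vgll3b*, which were high, and 148 of *rxrbac*, which was low. Wild fish 2 was high for *esrraa* at 75.4 and for *tead1b* at 233. Hatchery fish 1 was high for *egr1a* at 209 and low for *prkar1ac* at 268, and hatchery fish 2 was high for *tead3a* at 134. Where each tested gene of this paragraph was refitted without its own outlying liver, the call changed for *tead3a* alone (adjusted p = 0.0841 without hatchery fish 2). Calls of genes outside this paragraph also changed when single livers were left out. For independent, normally distributed values this cutoff gives about 1 in 20 sets. The sets here share the same livers and factors, so that rate is not a chance level for them.

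The wild to hatchery difference in liver departed from that in the 6 other tissues, by the test of the difference itself, for 22 named genes. The log2 differences were positive for *col12a1c* (2.52), *arhgap6b* (2.32), *lepra* (1.99), *enox1* (1.96), *vdraa* (1.88), *chmp2b* (1.82), *rln3aa* (1.69), *cebpdb* (1.37), *rpabc2b* (1.11), *vdrad* (0.99), *gadd45ba* (0.97) and *akap11a* (0.84). They were negative for *pparab* (-2.22), *esrraa* (-1.3), *ef1ac* (-0.86), *egr1a* (-0.85), *rxrbaa* (-0.85), *slc38a6* (-0.8), *esr1* (-0.79), *prkar1ac* (-0.68), *rxrbac* (-0.67) and *hif1a* (-0.59). *vdraa*, *ef1ac* and *rxrbaa* are reference genes, so their differences depend on each other through the scale. *cebpdb* was also higher in wild fish, and passed, in 5 of the 6 other tissues. Its log2 fold changes were -0.48 to 3.16 there and 2.79 in liver. For *akap11a* the liver value was near 0 while 5 of 6 other tissues were negative. *arhgap6b* and *enox1* did not pass in liver itself. *slc38a6* was at -1.86 in liver and at -1.89 to -0.08 in the other tissues. *col12a1c*, *arhgap6b* and *ef1ac* had entered the test through 1 liver group only. Under TMM neither *akap11a* (adjusted p = 0.23) nor *gadd45ba* (0.17) passed. With positive control scaling these genes and *cebpdb*, *vdrad*, *ef1ac*, *egr1a*, *slc38a6*, *prkar1ac*, *rxrbac* and *hif1a* did not pass, and without the fish block *ef1ac*, *slc38a6*, *esr1* and *hif1a* did not. Without the samples with a factor above 3, *ef1ac*, *egr1a*, *slc38a6*, *esr1*, *hif1a* and *akap11a* did not pass, at adjusted p-values of 0.0627, 0.0784, 0.0857, 0.0759, 0.0908 and 0.127 in that order.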

How the results depend on the processing

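The 38 genes that differed between wild and hatchery livers became 7 with positive control scaling (14 without wild fish 1), 25 with males only, 15 with immature males only and 21 at an adjusted p below 0.01. They were 26 to 44 with 1 liver left out, lowest without wild fish 3, and 34 to 48 with limma, DESeq2, TMM, 4 reference genes or subtracted negative controls. With 4 reference genes that left out *ef1ac* and *vdraa*, a choice made after seeing the data like every scaling without wild fish 1, 27 were higher and 16 lower. The share higher in wild livers, 39.5%, was 58.3% with TMM, 71.4% with the positive controls and 62.8% with this set. The median log2 fold change of all genes, -0.06, was 0.13 with TMM, 0.18 with this set, -0.25 with subtracted negative controls and -0.28 with the positive controls. The log2 fold change of *rxrgab* was 0.15 with immature males only (adjusted p = 0.768), and every other gene among the 38 kept its direction under all settings. Of the 38, 24 passed with each liver left out in turn.

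The 42 tissue differences became 32 without the fish block, 29 without the samples with a factor above 3 (wild fish 1 liver and 1 hatchery muscle), 22 with positive control scaling, and 27 to 40 with 1 liver left out (27 without hatchery fish 3). The 0 genes of the maturity comparison became 7 without wild fish 1, and 0 to 15 with 1 liver left out, most without wild fish 2. The 3 genes of the sex comparison became 10 without wild fish 1, and 0 to 12 with 1 liver left out: none passed without hatchery fish 2, 3 or 4, and 12 without wild fish 2. The cause was not tested. Where 1 fish remained in a subgroup, it was assumed to vary like the others.

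Fish of equal number share only the number: residual correlations of the 4 pairs were 0.17, 0.11, 0 and 0. With the number as a replicate block, 53 genes passed. A random block for cartridge could not be estimated. Genes near background, such as *ef1ac* (log2 -3.82 with subtracted negative controls and without wild fish 1), have uncertain fold changes.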
